A study of Mus musculus with 6 samples.

Results

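The mitochondrial carriers of the SLC25 family were followed through the growth of the mouse gastrocnemius, a calf muscle, from late gestation to adulthood. They were taken as every entry of the deposited expression table whose gene symbol starts with Slc25a, which gave 47 of 23367 entries. RNA came from wild-type FVB mice at embryonic day 18.5 (E18.5), at postnatal days 2, 14 and 28 (PN2, PN14 and PN28) and at 22 weeks (adult). Each stage was sequenced in 1 library, except PN14 with replicates 1 and 2, which makes 6 libraries. The E18.5 and PN2 libraries were made from pooled mice, the E18.5 pool held male and female animals, and the other mice were male. The counts on genes ran from 125402932 to 157868359 per library, so a carrier at 1 FPKM (fragments per kilobase of transcript, scaled to the library's total) rests on many reads. Slc25a47, near 1 FPKM throughout, had between 178 and 233 counts.

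SLC25 carriers are membrane proteins, most of them in the inner mitochondrial membrane, that exchange or import nucleotides, phosphate, organic acids, amino acids, cofactors and metals between the cytosol and the matrix. In muscle the adenine nucleotide carriers hand ATP to the contractile apparatus in exchange for ADP, the phosphate carrier supplies the other substrate of ATP synthesis, and the oxoglutarate and aspartate-glutamate carriers form the malate-aspartate shuttle that brings reducing equivalents of glycolysis into the matrix. Several members exist as pairs with the same substrate and different tissues, of which Slc25a4 (ANT1, the heart and muscle form) and Slc25a5 (ANT2, known from growing and dividing cells) are the best known.

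Slc25a4 lies at chr8:47292151-47296638 on the minus strand and Slc25a5 at chrX:34335646-34338802 on the plus strand of mm9, the build of the deposited values. The beginnings of their coding sequences are shown because the ratio of these genes is a main result, and the letters show how far reads can tell them apart. Bases 1 to 120 of each coding sequence, 5′ to 3′ from the GENCODE M1 transcripts, are given with the 26 differing bases in capitals.

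Slc25a4: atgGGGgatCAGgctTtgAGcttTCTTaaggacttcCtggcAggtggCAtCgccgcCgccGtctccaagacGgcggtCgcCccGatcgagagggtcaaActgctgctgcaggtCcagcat

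Slc25a5: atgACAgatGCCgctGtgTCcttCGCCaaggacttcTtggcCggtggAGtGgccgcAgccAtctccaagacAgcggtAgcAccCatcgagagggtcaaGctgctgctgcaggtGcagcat

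Both coding sequences have 897 bases and were identical at 77.48% of aligned positions, with a longest shared run of 20 bases. Slc25a31, the testis form of the carrier, was identical to each of them at 66.7% of aligned positions. No run of 100 bases was shared between transcripts of different carriers. Outside the family, the 1240 bases of the Slc25a5 transcript matched 2 other places in mm9 at 97% identity or more over at least 100 bases, and the closest matched at 97.8%. No such copy was found for Slc25a4. How the authors' alignment divided reads between Slc25a5 and those copies was not tested.

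The 250 bases upstream of the annotated starts of both genes follow, from the RefSeq promoter table of build GRCm38.p6, since these genes were called in opposite directions from E18.5 to adult. Slc25a4 is read from chr8:46211063-46211312 on the minus strand and Slc25a5 from chrX:36795347-36795596 on the plus strand. Capitals mark 3 kinds of motif on either strand, which are the GC box with the letters GGGCGG, the CCAAT box, and the TATA box, searched here as the letters TATAAA.

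Slc25a4: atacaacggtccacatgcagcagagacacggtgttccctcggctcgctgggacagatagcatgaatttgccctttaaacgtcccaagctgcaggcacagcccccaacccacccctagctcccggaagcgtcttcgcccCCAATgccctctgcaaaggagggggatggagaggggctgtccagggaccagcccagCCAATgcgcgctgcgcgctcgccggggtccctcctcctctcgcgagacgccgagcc

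Slc25a5: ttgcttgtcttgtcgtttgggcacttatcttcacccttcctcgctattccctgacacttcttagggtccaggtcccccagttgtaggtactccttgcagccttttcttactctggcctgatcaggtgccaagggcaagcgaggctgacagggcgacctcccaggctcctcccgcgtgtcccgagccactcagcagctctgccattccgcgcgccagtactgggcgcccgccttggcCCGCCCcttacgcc

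The Slc25a4 window held 2 CCAAT boxes, which began at 112 and 56 bases before the start, and no GC box. The Slc25a5 window held a GC box that began 14 bases before the start and no CCAAT box. Neither held a TATA box. Of all 32851 promoters in the table, 33.8% held a CCAAT box, 32.7% a GC box and 12.4% a TATA box. Both windows were rich in CpG pairs, with 18 upstream of Slc25a4 and 14 upstream of Slc25a5 against a median of 6 over all promoters. These are matches of letters and were not tested for binding.

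Of the 47 carriers, 38 reached 1 FPKM in at least 1 library, 34 did so in every library and 9 stayed below 1 FPKM throughout. A few members made up nearly all of the carrier transcripts. Slc25a4 alone held 56.1% of the summed carrier FPKM in the E18.5 pool and 61.5% in the PN2 pool, then 74.8% and 73.0% in PN14 replicates 1 and 2, 76.6% in the PN28 mouse and 76.0% in the adult. It ranked 42 among all entries by FPKM at E18.5 and between 15 and 18 in the later libraries. Only 5 members exceeded 100 FPKM in any library, namely Slc25a4, Slc25a3, Slc25a11, Slc25a5 and Slc25a12. The summed FPKM of the family was 2275 in the E18.5 pool, 2894 in the PN2 pool, 5049 and 5279 in the PN14 libraries, 4602 in the PN28 mouse and 4082 in the adult. That was 0.459% of all FPKM in the E18.5 pool, 0.600% in the PN2 pool, 0.862% and 0.914% in the PN14 mice, 0.794% in the PN28 mouse and 0.746% in the adult. The family's share was therefore lowest before birth and highest at PN14, where the replicates lay close together.

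**Figure D1:**
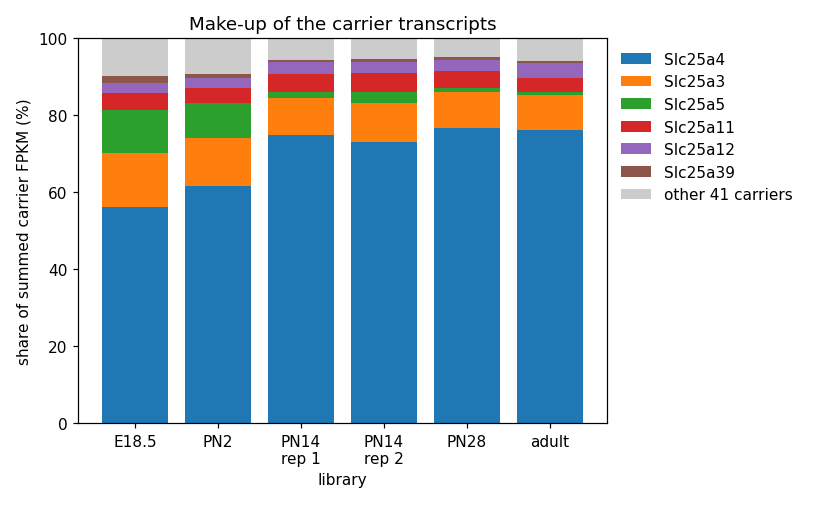
Stacked bars of the percent of the summed carrier FPKM held by each of 6 carriers and by the other 41 together, in each of the 6 libraries. The Slc25a4 segment grows from 56.1% at E18.5 to 76.0% in the adult, while the Slc25a5 segment shrinks from 10.9% to 0.674%.

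FPKM values are scaled to the total of each library, and this matters here because the most abundant genes took a larger share of the later libraries. The 20 most abundant genes held 16.0% and 16.7% of the counts at E18.5 and PN2 and between 28% and 36.9% in the 4 later libraries. Fold changes below are therefore given relative to the bulk of genes, by edgeR's TMM scaling, with factors of 1.45 at E18.5 and PN2, 0.841 and 1.01 in the PN14 mice, 0.785 in the PN28 mouse and 0.714 in the adult. With library size alone, the median of all 16882 tested genes moved on the log2 scale, by -0.66 over the interval from PN2 to PN14, -0.25 over that to PN28, -0.15 over that to adult and -1.08 from E18.5 to adult. A carrier is called changed at an adjusted p under 0.05 in edgeR's quasi-likelihood test together with a log2 fold change past 1 in either direction. The spread in this test comes from the PN14 pair alone, which is assumed to hold at every stage. By the column names no libraries shared a sequencing lane, and lane and stage cannot be told apart. In whole tissue, fewer cells of a type and less RNA per cell cannot be told apart either.

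From PN2 to PN14, 15 of the 46 carriers tested were called, 13 higher and 2 lower at PN14. This was 32.6% of the carriers, beside 23.0% of all genes tested. The calls up included the ATP-Mg/phosphate carrier Slc25a25, the basic amino acid carrier Slc25a29, Slc25a35, and the malate-aspartate shuttle carriers Slc25a12 and Slc25a11. The calls down were the ATP-Mg/phosphate carrier Slc25a24 and the glutamate carrier Slc25a18. In all, 8 carriers were called in the same direction with library size alone. Under that scaling 14 of the 46 carriers were called, 7 higher and 7 lower, beside 34.5% of all genes tested. The share of carriers called was thus above that of all genes by TMM only. The median log2 fold change of the carriers was 0.76, beside -0.01 for all genes. Scaled to library size it was 0.10, beside -0.66. Of the 46, 10 carriers changed direction between the scalings, all of them higher by TMM and lower by library size.

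**Figure D2:**
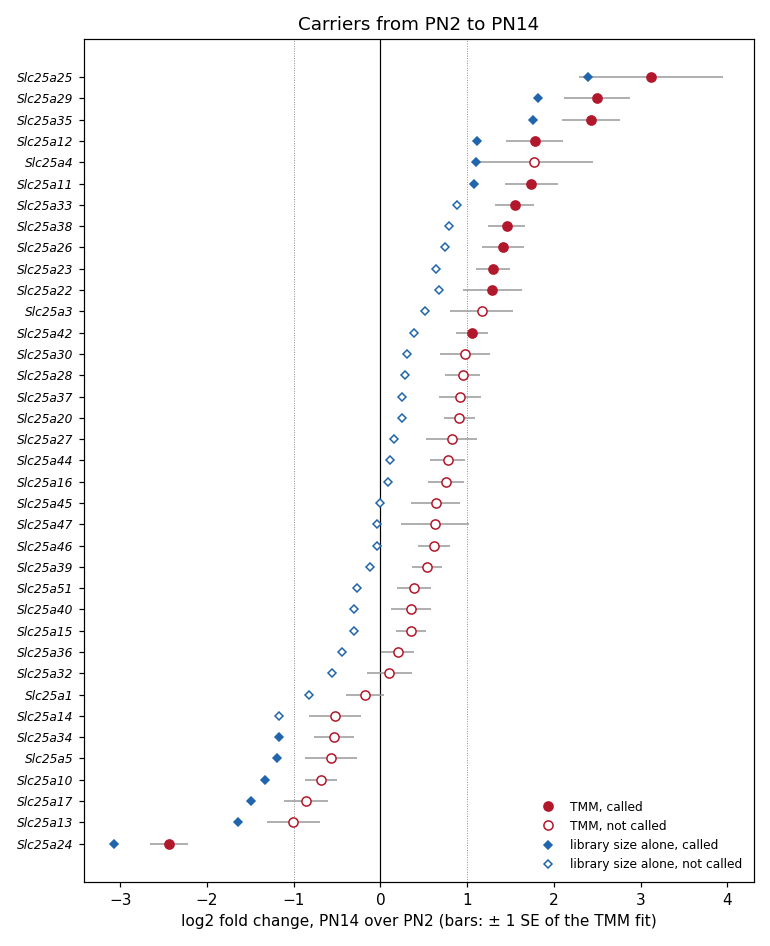
Log2 fold change from PN2 to PN14 (horizontal axis) for 37 carriers that reached 1 FPKM, one per line, with TMM scaling (circles, bars of 1 SE) and with library size alone (diamonds), and filled symbols for calls. Slc25a25 is highest at 3.12 and Slc25a24 lowest at -2.44 by TMM, and the diamonds lie to the left of the circles for every gene.

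Between the other neighbouring stages no carrier was called. From E18.5 to PN2 edgeR's quasi-likelihood test called 0 carriers and 0.0296% of all genes. It gave an unadjusted p under 0.05 for 4 of the 46 carriers and 1121 of all 16882 genes tested. DESeq2's Wald test called 2 carriers there and edgeR's exact test 3. The shares of all genes that the Wald and exact tests called were not counted for any interval. From PN14 to PN28 the quasi-likelihood test called 0 carriers and 0.0178% of all genes. It gave an unadjusted p under 0.05 for 6 carriers and 1420 of all genes tested. The Wald test called 2 carriers there and the exact test 3. From PN28 to adult the quasi-likelihood test called 0 carriers and 0.521% of all genes. It gave an unadjusted p under 0.05 for 3 carriers and 3091 of all genes tested. The Wald and exact tests also called 0. Counted without a test, 3 of the 38 carriers at 1 CPM or more were 2-fold or more higher at PN2 than at E18.5, beside 3.44% of all genes in either direction. The interval from PN2 to PN14 had 14 carriers at least 2-fold higher and 1 lower, beside 26.9% of all genes, and with library size alone 7 higher and 7 lower. From PN14 to PN28, 1 was higher and 2 were lower (3.35% of all genes), and from PN28 to adult there were 0 (10.2% of all genes).

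Over the whole period from E18.5 to adult, 26 of the 46 carriers were called, 21 higher and 5 lower in the adult, which was 56.5% beside 44.9% of all genes tested. By library size 23 of the 46 were called, 11 higher and 12 lower, beside 53.6% of all genes tested. The share of carriers called was thus above that of all genes by TMM only. In the same direction under both scalings 16 carriers were called, 11 higher and 5 lower. Another 9 changed direction between the scalings. Of the 15 carriers called from PN2 to PN14, 12 were also called from E18.5 to adult. The other 3 were Slc25a2, Slc25a22 and Slc25a23. The shorter interval lies within the longer period and comes from the same fit. The overlap among all genes was not counted, so whether this count is particular to the carriers is not known.

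**Figure D3:**
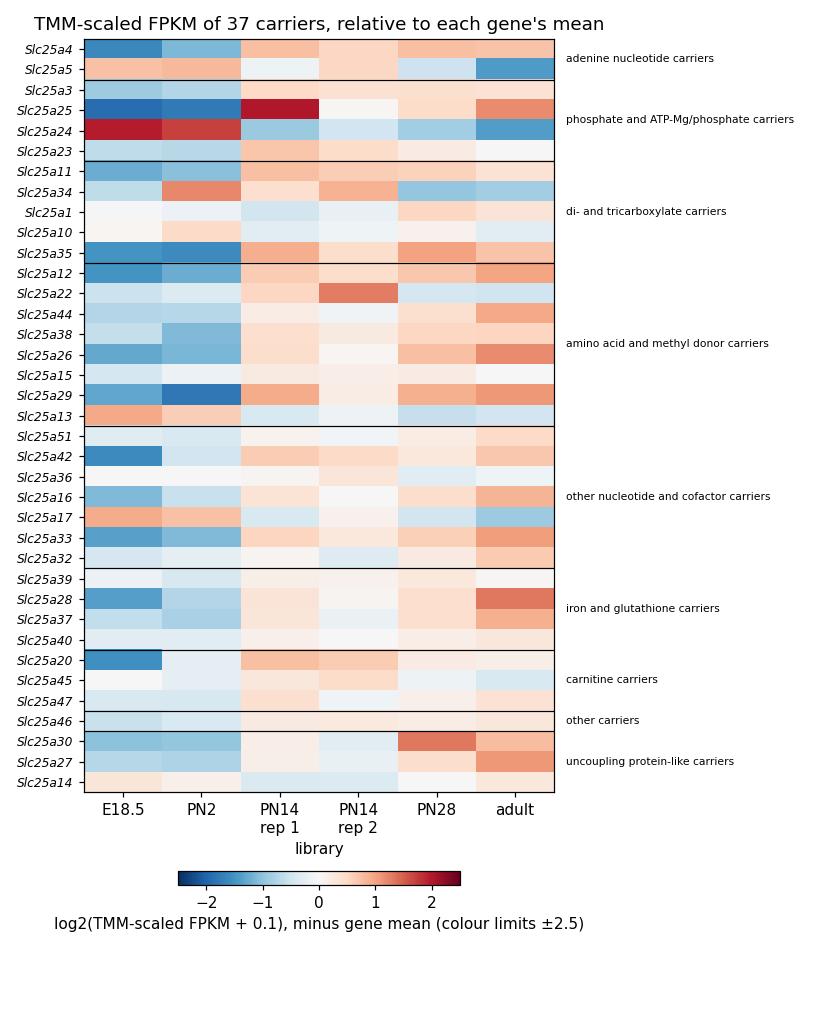
Log2 of TMM-scaled FPKM plus 0.1, minus the mean of each gene, for 37 carriers that reached 1 FPKM (rows, grouped by role) in the 6 libraries (columns), with blue below and red above the gene's mean. Most rows turn from blue to red between PN2 and PN14, while Slc25a24, Slc25a5, Slc25a13 and Slc25a17 run from red at E18.5 to blue in the adult.

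Slc25a4 was the most abundant carrier in every library. Its FPKM was 1276 in the E18.5 pool, 1779 in the PN2 pool, 3778 and 3853 in PN14 replicates 1 and 2, 3523 in the PN28 mouse and 3103 in the adult. All 4 later libraries lay above the 2 perinatal ones. From PN2 to PN14 the log2 fold change was 1.76 (SE 0.68), which edgeR's quasi-likelihood test did not call (adjusted p = 0.0966). The same difference was called with library size alone, at 1.10 (adjusted p = 0.00241 in edgeR), and by DESeq2's Wald test (adjusted p = 5.52e-09) and edgeR's exact test (adjusted p = 4.6e-05). From E18.5 to adult Slc25a4 was called higher, with a log2 fold change of 2.31 (SE 0.76, adjusted p = 0.0434 in edgeR's quasi-likelihood test). The levels at PN14, PN28 and adult did not differ past the threshold from one stage to the next.

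Slc25a5 was highest around birth and lowest in the adult. Its FPKM was 249 in the E18.5 pool, 263 in the PN2 pool, 80.4 and 150 in PN14 replicates 1 and 2, 57.0 in the PN28 mouse and 27.5 in the adult. The PN14 replicates differed widely, with replicate 1 at 0.537 of replicate 2, and both lay below PN2 and above PN28. Scaled by TMM, replicate 1 alone was at 0.526 of the PN2 level and replicate 2 alone at 0.819. From PN2 to PN14 the log2 fold change was -0.57 (SE 0.30) and was not called by edgeR's quasi-likelihood test (adjusted p = 0.194). With library size alone it was -1.20 and was called (adjusted p = 0.000513 in edgeR). From E18.5 to adult Slc25a5 was called lower under both scalings, by TMM with a log2 fold change of -2.15 (SE 0.37, adjusted p = 0.00541 in edgeR's quasi-likelihood test). By rank among all entries it went from 271 at E18.5 to 1870 in the adult.

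Of 8 symbols listed as proliferation markers (Mki67, Top2a and others) 7 were in the table. These 7 were all called lower from PN2 to PN14 and from E18.5 to adult, where 23.0% and 44.9% of all genes were called. Their summed FPKM was 149 in the E18.5 pool, 96.5 in the PN2 pool, 12.1 and 30.0 in PN14 replicates 1 and 2, 12.7 in the PN28 mouse and 0.46 in the adult. As for Slc25a5, PN14 replicate 2 was above replicate 1. The part of dividing cells in the Slc25a5 values was not tested. Of the muscle fibre markers, 3 of 8 were called higher from PN2 to PN14 and none lower, beside 23.0% of all genes. Their summed FPKM (Ckm, Acta1 and others) ran from 21716 in the E18.5 pool and 24679 at PN2 to between 69755 and 95260 in the later libraries, in the direction of Slc25a4, and none of either list was at 0 in every library.

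The ratio of Slc25a4 to Slc25a5 is free of the scaling between libraries. By FPKM, and so per length, it was 5.13 in the E18.5 pool, 6.75 in the PN2 pool, 47.0 and 25.8 in PN14 replicates 1 and 2, 61.8 in the PN28 mouse and 113 in the adult. The adult ratio was 22.0 times that at E18.5. At PN14 the mean ratio was 36.4 ± 15.0 (SD, n = 2), 5.39 times that at PN2, and both replicates exceeded PN2 and E18.5. The ratios at E18.5 and PN2 differed 1.32-fold and those at PN28 and adult 1.82-fold, and the mean at PN14 was 1.70-fold from PN28. The PN14 replicates differed 1.82-fold between themselves, so these neighbours are not set apart beyond the replicate spread. Slc25a5 made up 16.3% of the summed FPKM of the 3 adenine nucleotide carriers in the E18.5 pool, 12.9% in the PN2 pool, 2.08% and 3.74% in the PN14 mice, 1.59% in the PN28 mouse and 0.879% in the adult. Slc25a31 (chr3:40512777-40529515) hardly contributed, with 0.10 FPKM in the E18.5 pool, 0.04 in the PN2 pool, 0.02 and 0.03 in the PN14 mice, 0.02 in the PN28 mouse and 0.01 in the adult, from at most 33 counts.

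**Figure D4:**
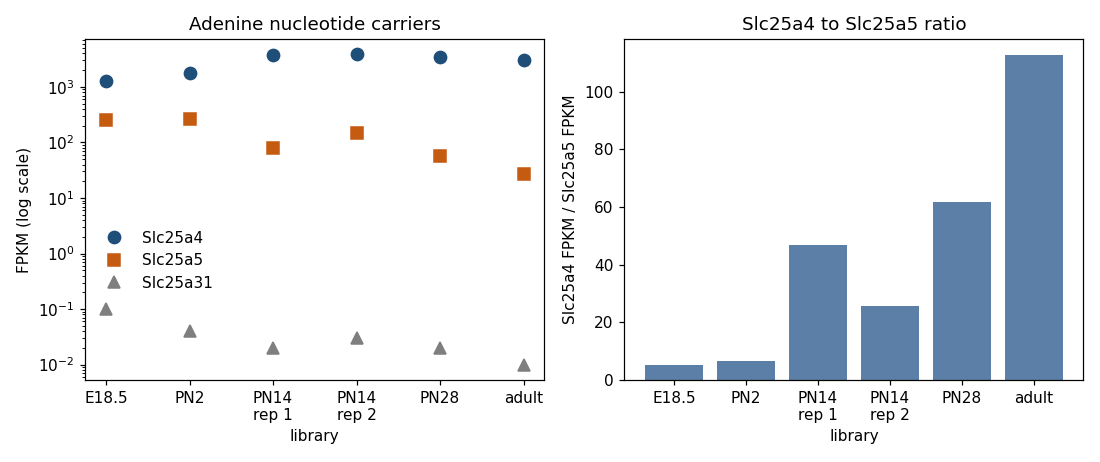
Left, FPKM of Slc25a4, Slc25a5 and Slc25a31 in each of the 6 libraries on a log scale. Right, bars of the ratio of Slc25a4 to Slc25a5 FPKM per library, which is 5.13 in the E18.5 pool, 47.0 and 25.8 in the PN14 replicates and 113 in the adult.

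Among the 5 phosphate and ATP-Mg/phosphate carriers, 2 were called higher and 1 lower from PN2 to PN14, where 23.0% of all genes were called. Slc25a3 (chr10:90579319-90586804), the phosphate carrier, had 321 FPKM in the E18.5 pool, 361 in the PN2 pool, 487 and 539 in the PN14 libraries, 427 in the PN28 mouse and 376 in the adult. Its libraries spanned a ratio of only 1.68 from highest to lowest. From PN2 to PN14 its log2 fold change of 1.17 (SE 0.36) was not called (adjusted p = 0.0572 in edgeR), and from E18.5 to adult it was called at 1.25 by TMM (adjusted p = 0.0419) but was 0.23 and not called with library size alone.

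The calcium-regulated ATP-Mg/phosphate carriers, which set the matrix pool of adenine nucleotides, exchanged their order. Slc25a24 (chr3:108926067-108971375) had 30.0 FPKM in the E18.5 pool, 25.3 in the PN2 pool, 2.29 and 3.74 in the PN14 mice, 2.21 in the PN28 mouse and 1.37 in the adult. Every later library lay far below the 2 perinatal ones, and it was called lower from PN2 to PN14 at a log2 fold change of -2.44 (SE 0.22, adjusted p = 0.00389 in edgeR). Slc25a25 (chr2:32270007-32306965) had 4.72 FPKM in the E18.5 pool, 5.21 in the PN2 pool, 42.0 and 12.8 in PN14 replicates 1 and 2, 13.5 in the PN28 mouse and 20.4 in the adult. It was called higher from PN2 to PN14 at 3.12 (SE 0.83, adjusted p = 0.0374 in edgeR), but not by DESeq2's Wald test (adjusted p = 0.11, and 0.128 from E18.5 to adult). Replicate 1 was 3.29 times replicate 2 by FPKM. Scaled by TMM, the PN14 mean was 8.73 times PN2, replicate 1 alone 13.9 times and replicate 2 alone 3.54 times. The ratio of Slc25a25 to Slc25a24 was 0.157 in the E18.5 pool, 0.206 in the PN2 pool, 18.3 and 3.42 in the PN14 mice, 6.09 in the PN28 mouse and 14.9 in the adult. Slc25a23, another carrier of this type, was between 5.29 and 10.4 FPKM in all libraries and was called higher from PN2 to PN14 by TMM only. Slc25a41, a short form without the calcium-binding domain, reached at most 0.35 FPKM. It was called higher from E18.5 to adult, from 7 counts to 58.

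Slc25a11 and Slc25a12, carriers of the malate-aspartate shuttle, were both called higher from PN2 to PN14, and Slc25a13, the other aspartate-glutamate carrier, was not. Slc25a11 (chr11:70457698-70460981), the oxoglutarate carrier, had 101 FPKM in the E18.5 pool, 115 in the PN2 pool, 232 and 255 in the PN14 mice, 194 in the PN28 mouse and 150 in the adult. It was called higher from PN2 to PN14 at a log2 fold change of 1.74 (SE 0.31, adjusted p = 0.0128 in edgeR). Slc25a12 (aralar, chr2:71109120-71205806), the aspartate-glutamate carrier of muscle and brain, had 59.0 FPKM in the E18.5 pool, 70.3 in the PN2 pool, 149 and 156 in the PN14 mice, 142 in the PN28 mouse and 161 in the adult. It was called at 1.78 (SE 0.33, adjusted p = 0.0142 in edgeR), and its 4 later libraries lay close together. Slc25a13 (citrin), the liver form of the same carrier, had 1.88 FPKM in the E18.5 pool, 1.46 in the PN2 pool, 0.38 and 0.56 at PN14 and 0.30 in the PN28 mouse and in the adult. It was called lower from E18.5 to adult at -1.63 (SE 0.38, adjusted p = 0.0144 in edgeR) but not from PN2 to PN14 (-1.01, adjusted p = 0.0542), where library size alone called it lower (-1.64). The ratio of Slc25a12 to Slc25a13 was 31.4 in the E18.5 pool, 48.2 in the PN2 pool, 393 and 278 in the PN14 mice, 474 in the PN28 mouse and 537 in the adult. As with the adenine nucleotide carriers, both PN14 replicates lay well above PN2.

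Of the 6 di- and tricarboxylate carriers tested, Slc25a11 and Slc25a35 were called higher from PN2 to PN14 and none lower, beside the same 23.0%. Slc25a35 (chr11:68781633-68787867), a carrier whose substrate in muscle is not established, had 1.22 FPKM in the E18.5 pool, 1.14 in the PN2 pool, 4.13 and 3.54 in the PN14 mice, 4.11 in the PN28 mouse and 3.03 in the adult, with a log2 fold change from PN2 to PN14 of 2.43 (SE 0.33, adjusted p = 0.00728 in edgeR). Its neighbour in sequence, Slc25a34, had 5.47 FPKM in the E18.5 pool, 19.9 in the PN2 pool, 6.67 and 10.98 in the PN14 mice, 2.34 in the PN28 mouse and 2.30 in the adult, and so was highest at PN2. Its differences from E18.5 to PN2 (log2 fold change 1.86, SE 0.28) and from PN14 to PN28 (-1.66, SE 0.26) were not called, with adjusted p of 0.171 and 0.253 in edgeR's quasi-likelihood test. Both were called with library size alone. The citrate carrier Slc25a1 stayed between 3.85 and 8.82 FPKM and the dicarboxylate carrier Slc25a10 between 2.13 and 7.32. Neither was called by TMM from PN2 to PN14 or from E18.5 to adult. The oxodicarboxylate carrier Slc25a21 did not exceed 0.04 FPKM.

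Of the 10 amino acid and methyl donor carriers, 6 were called higher and 1 lower from PN2 to PN14, beside 23.0% of all genes in either direction. Slc25a29 (chr12:110064083-110074093), a carrier of basic amino acids, had 2.46 FPKM in the E18.5 pool, 1.69 in the PN2 pool, 6.93 and 4.95 in the PN14 mice, 6.26 in the PN28 mouse and 6.59 in the adult. Its log2 fold change from PN2 to PN14 was 2.5 (SE 0.38, adjusted p = 0.00906 in edgeR). Slc25a26 (chr6:94450308-94554642), which imports S-adenosylmethionine, the methyl donor of the matrix, had 3.96 FPKM in the E18.5 pool, 4.38 in the PN2 pool, 7.7 and 7.0 in the PN14 mice, 9.0 in the PN28 mouse and 10.99 in the adult, and was called at 1.42 (SE 0.24, adjusted p = 0.0119 in edgeR). Slc25a38 (chr9:120019492-120033622), a glycine carrier of haem synthesis, had 7.67 FPKM in the E18.5 pool, 5.38 in the PN2 pool, 9.14 and 9.47 in the PN14 mice, 9.08 in the PN28 mouse and 8.38 in the adult, and was called at 1.45 (SE 0.21, adjusted p = 0.00833 in edgeR). By library size neither of these 2 was called, at 0.75 and 0.79.

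Slc25a2, an ornithine carrier, was also called higher from PN2 to PN14, at 2.41 (SE 0.66, adjusted p = 0.0401 in edgeR). The call was lost with library size alone (adjusted p = 0.0857 in edgeR) and in DESeq2's Wald test (adjusted p = 0.296). It rests on few reads, with 0.09 FPKM in the E18.5 pool, 0.04 in the PN2 pool, 0.16 and 0.14 in the PN14 mice, 0.17 in the PN28 mouse and 0.12 in the adult, and 9 counts at PN2. The glutamate carriers behaved unlike each other. Slc25a22 had 7.72 FPKM in the E18.5 pool, 8.97 in the PN2 pool, 9.43 and 19.3 in PN14 replicates 1 and 2, 4.57 in the PN28 mouse and 3.92 in the adult. It was called higher from PN2 to PN14 at 1.29 by TMM (SE 0.34, adjusted p = 0.0355 in edgeR) and was not called with library size alone, at 0.67. Scaled by TMM, replicate 1 alone was 1.81 times PN2 and replicate 2 alone 3.10 times. Slc25a18 (chr6:120723786-120744000) had 0.61 FPKM in the E18.5 pool, 0.58 in the PN2 pool, 0.08 and 0.05 in the PN14 mice, 0.05 in the PN28 mouse and 0.02 in the adult. It was called lower from PN2 to PN14 at -2.56 (SE 0.57, adjusted p = 0.0227 in edgeR) but not by DESeq2's Wald test (adjusted p = 0.2), and rests on 13 and 9 counts in the PN14 libraries. The ornithine carrier Slc25a15 and the branched-chain amino acid carrier Slc25a44 were at 3.87 to 7.18 and 7.33 to 11.8 FPKM. Neither was called from PN2 to PN14, and Slc25a44 was called higher from E18.5 to adult by TMM (1.72, SE 0.23).

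Among the other nucleotide and cofactor carriers, Slc25a33 and Slc25a42 were called higher from PN2 to PN14 by TMM and not with library size alone. Slc25a33 (chr4:149118145-149148386), a pyrimidine nucleotide carrier, had 3.40 FPKM in the E18.5 pool, 4.05 in the PN2 pool, 7.53 and 7.43 in the PN14 mice, 7.29 in the PN28 mouse and 9.08 in the adult, and was called at 1.55 by TMM (SE 0.22, adjusted p = 0.00832 in edgeR). Its relative Slc25a36 ran from 14.1 FPKM at PN2 to 6.38 at PN28 and was not called in either comparison by TMM. The ratio of Slc25a33 to Slc25a36 was 0.243 in the E18.5 pool, 0.287 in the PN2 pool, 0.874 and 0.616 in the PN14 mice, 1.14 in the PN28 mouse and 1.41 in the adult.

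The coenzyme A carrier Slc25a42 had 5.68 FPKM in the E18.5 pool and 12.4 at PN2 and between 11.3 and 16.9 in the later libraries. It was called higher from PN2 to PN14 by TMM at 1.05 (SE 0.19, adjusted p = 0.0128 in edgeR). Slc25a17, a peroxisomal member of the family that carries coenzyme A and flavin nucleotides, had 16.3 FPKM in the E18.5 pool, 14.3 in the PN2 pool, 3.80 and 6.39 in the PN14 mice, 3.33 in the PN28 mouse and 2.20 in the adult. It was called lower from E18.5 to adult (-1.86, SE 0.31, adjusted p = 0.0049 in edgeR). Slc25a51, the NAD+ carrier, was among the steadiest, with 21.4 FPKM in the E18.5 pool, 20.4 in the PN2 pool, 16.4 and 17.5 in the PN14 mice, 16.2 in the PN28 mouse and 18.1 in the adult. By TMM its log2 fold change from E18.5 to adult was 0.79 and with library size alone -0.24, and it was called under neither. The folate carrier Slc25a32 and Slc25a16 were not called from PN2 to PN14 and were called higher from E18.5 to adult by TMM only.

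Among the 4 genes grouped here as carnitine carriers only Slc25a20 (chr9:108564429-108586972), the carnitine-acylcarnitine carrier of fatty acid oxidation, was abundant. The group name is a label, and the substrates of its other members were not tested. It had 12.9 FPKM in the E18.5 pool, 32.1 in the PN2 pool, 36.3 and 40.1 in the PN14 mice, 23.4 in the PN28 mouse and 20.4 in the adult. Its level was lowest at E18.5 and highest at PN14. The log2 difference between E18.5 and PN2 of 1.32 (SE 0.21) was not called (adjusted p = 0.176 in edgeR's quasi-likelihood test) and was called with library size alone. From E18.5 to adult it was called at 1.69 (SE 0.21, adjusted p = 0.00212 in edgeR), and with library size alone was 0.67 and not called. Slc25a45 and Slc25a47 stayed between 0.97 and 2.59 and between 0.78 and 1.03 FPKM, and Slc25a48 did not exceed 0.07 FPKM.

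**Figure D5:**
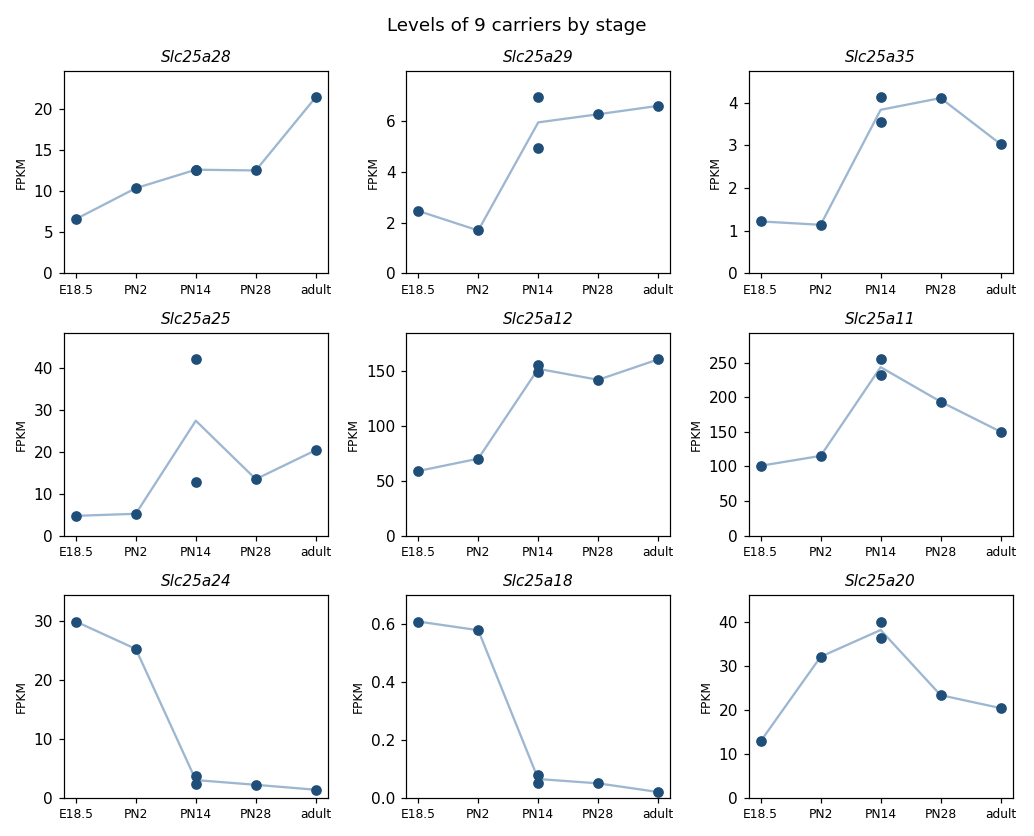
FPKM of 9 carriers (1 panel each, axes from 0) against stage, with a point per library and a line through the stage means, so that PN14 has 2 points. Slc25a29, Slc25a35, Slc25a12 and Slc25a11 step up between PN2 and PN14, Slc25a24 and Slc25a18 step down, Slc25a20 is already at 32.1 at PN2, Slc25a28 is highest in the adult at 21.4, and the PN14 points of Slc25a25 lie apart at 42.0 and 12.8.

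None of the 4 iron and glutathione carriers was called from PN2 to PN14, beside 23.0% of all genes. Slc25a28 and Slc25a37 missed only the fold threshold, with log2 fold changes of 0.95 and 0.92 by TMM. Their adjusted p in edgeR's quasi-likelihood test was 0.02 and 0.0373. With library size alone they were at 0.28 and 0.24 and did not pass the p threshold. Slc25a39 (chr11:102264299-102269260), which brings glutathione into mitochondria, had 42.3 FPKM in the E18.5 pool, 35.2 in the PN2 pool, 29.9 and 35.1 in the PN14 mice, 30.2 in the PN28 mouse and 23.4 in the adult. By TMM the log2 fold change from E18.5 to adult was 0.17 and with library size alone -0.86, so its direction depends on the scaling. Its relative Slc25a40 stayed between 2.26 and 3.09 FPKM. The iron importer Slc25a28 (mitoferrin-2, of most tissues) had 6.59 FPKM in the E18.5 pool, 10.3 in the PN2 pool, 12.6 in both PN14 libraries, 12.5 in the PN28 mouse and 21.4 in the adult. It was called higher from E18.5 to adult at 2.72 (SE 0.24, adjusted p = 0.00125 in edgeR). Slc25a37 (mitoferrin-1, known from red cell precursors) ran from 4.87 at PN2 to 7.94 in the adult and was called higher from E18.5 to adult by TMM only (1.53, SE 0.28). From E18.5 to adult the summed FPKM of 11 erythroid markers in the table went the other way, but not from PN2 to PN14. It was 9107 in the E18.5 pool, 1594 at PN2, 2256 and 1253 in the PN14 mice, 1279 in the PN28 mouse and 398 in the adult. By TMM the median log2 fold change of the 10 tested was 0.69 from PN2 to PN14, beside 0.92 for Slc25a37. Hbb-b2 and Hbb-bt had the same values in every library. The part of red cells in the Slc25a37 values was not tested. Only Hbb-bs was at 0 in every library.

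The 3 uncoupling protein-like carriers were low. Slc25a30 had 2.30 FPKM in the E18.5 pool, 2.41 in the PN2 pool, 3.17 and 2.80 in the PN14 mice, 6.70 in the PN28 mouse and 4.14 in the adult, and was the one carrier at 1 FPKM whose FPKM was highest at PN28. Its log2 fold change from PN14 to PN28 of 1.38 (SE 0.26) was not called by edgeR's quasi-likelihood test (adjusted p = 0.342). DESeq2's Wald test did not call it either (adjusted p = 0.0577), while edgeR's exact test gave an adjusted p of 0.00566. Slc25a27 and Slc25a30 were called higher from E18.5 to adult by TMM only, and Slc25a14 was not called. Slc25a46, which works in the outer membrane in mitochondrial division and shape, stayed between 12.3 and 16.8 FPKM. It was not called from PN2 to PN14 (0.62, SE 0.18) or from E18.5 to adult (0.84, SE 0.20). Slc25a43, Slc25a53 and Slc25a54 did not exceed 0.36 FPKM in any library, and Slc25a54 had too few counts to be tested.

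Seen over all 38 carriers at 1 FPKM, the highest library was 2.70 times the lowest in the median carrier by FPKM and 3.62 times by TMM-scaled FPKM. By FPKM 14 carriers stayed within a ratio of 2 and 7 exceeded 5, among them Slc25a24, Slc25a5, Slc25a25, Slc25a34, Slc25a17 and Slc25a13. The PN14 replicates agreed within 1.5-fold for 32 of the 38. The exceptions were Slc25a25, higher in replicate 1, and Slc25a5, Slc25a17, Slc25a22, Slc25a24 and Slc25a34, higher in replicate 2. After TMM scaling, Slc25a25 was the only carrier that differed 2-fold or more between the replicates, which is 2.63% of the carriers at 1 CPM beside 2.74% of all such genes. The replicates also differed in 6 Schwann cell markers, whose summed FPKM was 322 in replicate 1 and 1179 in replicate 2, beside 229 in the E18.5 pool, 589 in the PN2 pool, 277 in the PN28 mouse and 224 in the adult. Of the 7 fat-cell markers Fabp4 was by far the most abundant, with 479 and 625 FPKM in the PN14 replicates and between 303 and 471 elsewhere. The other 6 summed to 1.78 FPKM at E18.5, 59.7 at PN2, 18.6 and 16.8 for PN14 replicates 1 and 2, 116 at PN28 and 75.9 for the adult. No marker of these lists was at 0 in every library, and the part of such cells in the carriers that differed was not tested.

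Of 5 further family genes that carry other symbols, 3 were called higher from PN2 to PN14 and none lower, beside 23.0% of all genes. Ucp1 was at most 0.12 FPKM in the libraries compared, and Mtch2 was not called with library size alone (0.45). The remaining gene, Ucp3, the muscle uncoupling protein, had 2.91 FPKM in the E18.5 pool, 26.9 in the PN2 pool, 42.9 and 77.0 in the PN14 mice, 22.5 in the PN28 mouse and 33.7 in the adult, and was called at 1.78 (SE 0.31, adjusted p = 0.012 in edgeR). Its level was lowest at E18.5, as was that of Slc25a20. Mtch1, an outer membrane member, had 141 FPKM in the E18.5 pool and 31.3 in the adult and was called lower over that period (-1.15, SE 0.26, adjusted p = 0.0137 in edgeR).

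Carriers reach the inner membrane through an import machinery of receptors, small chaperones and a translocase. Of its 10 genes tested, only Timm8b was called, beside 23.0% and 44.9% of all genes, higher both from PN2 to PN14 (1.48, SE 0.21, adjusted p = 0.00799 in edgeR) and from E18.5 to adult. Scaled to library size those values were 0.82 and 0.99. The receptor Tomm70a and the carrier translocase Timm22 differed by 0.28 and 0.80 on the log2 scale between PN2 and PN14. Of 14 genes for other mitochondrial transport, 4 were called higher from PN2 to PN14 (23.0% of all genes were called), and 7 higher and 1 lower from E18.5 to adult (44.9% of all genes). Both subunits of the pyruvate carrier, which is no SLC25 protein, were among them. Mpc1 had 67.4 FPKM in the E18.5 pool, 63.7 in the PN2 pool, 251 and 234 in the PN14 mice, 262 in the PN28 mouse and 356 in the adult, with a log2 fold change from PN2 to PN14 of 2.60 (SE 0.31, adjusted p = 0.00577 in edgeR). Mpc2 had a log2 fold change of 2.27 (SE 0.26) over the same interval. Vdac1, the main pore of the outer membrane, had 282 FPKM in the E18.5 pool, 383 in the PN2 pool, 672 and 657 in the PN14 mice, 639 in the PN28 mouse and 772 in the adult, and was not called from PN2 to PN14 (1.46, SE 0.45, adjusted p = 0.056 in edgeR).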

How the data were processed

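Poly(A) RNA of mouse gastrocnemius was sequenced by the authors, aligned to mm9 with TopHat2 2.0.5 and counted on RefSeq gene models with RSEM. The deposited table gives, per gene and library, the expected count (not normalized, whole numbers) and the FPKM, normalized by the authors to gene length and library size. Members were all entries whose symbol starts with Slc25a. The members and lists were chosen with earlier results of these data known. Values in every library are given for the 3 adenine nucleotide carriers, the 8 carriers with the highest mean FPKM and the called carriers, at most 10 per direction and interval, and further carriers were added after their values were seen.

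Counts of all genes were analysed in R 4.3.3 with edgeR 4.0.16 (filterByExpr, TMM, quasi-likelihood test, 1 fit over 6 libraries and 5 stages, Benjamini-Hochberg adjustment over 16882 genes). The PN14 pair left 1 residual degree of freedom, and the biological coefficient of variation was 0.188 with 4.86 prior degrees of freedom. SE is the log2 fold change divided by the root of F. Counts of 2-fold differences used log2 of CPM plus 0.1 among genes at 1 CPM or more. The PN14 replicates came from separate mice, and p-values rest on their spread. Alternatives were library size alone, DESeq2 1.42.0 (size factors and Wald test), edgeR's exact test, other filters, pseudocount and floor, and leaving out a PN14 replicate. Sequences were compared with Biopython 1.88 and BLAST+ 2.17.0 on GENCODE M1 (mm9), which placed 44 carriers. The promoter table (GRCm38.p6) held 36. The values of 1 carrier are not reported here, though totals over the family include it.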

Additional observations from a re-analysis of the deposited data

How the results depend on the processing

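Only PN14 had replicates, so the tests rest on the spread of that pair, and leaving out a PN14 library leaves no residual degree of freedom for a test. No paired analysis was possible because only PN14 carries replicate numbers. The carriers called from E18.5 to PN2 (0) became 2 with library size alone, 2 with DESeq2's Wald test, 3 with edgeR's exact test and 2 with no filter. From PN14 to PN28 (0) they became 2, 2, 3 and 1 under the same settings. Library size alone called 1.43% of all genes from E18.5 to PN2 and 1.55% from PN14 to PN28. From PN2 to PN14 (15) the carriers called became 24 with no minimum fold change, and those added had a log2 fold change under 1 in size. The cause of the other changes in these counts was not tested. The shares of all genes called with no filter and with no minimum fold change were not counted. Nor were the shares of all genes that differed 2-fold with library size alone or without a PN14 replicate. With library size alone, 2-fold differences without a test numbered 5 between PN14 and PN28 and 1 between PN28 and adult. The log2 fold change of Slc25a4 from PN2 to PN14 was 1.10 with library size alone, 1.75 with the Wald test and 1.76 with the exact test, and was called in all 3, as was that of Slc25a5 with library size alone (-1.20). Without PN14 replicate 1 or 2, the carriers that differed 2-fold numbered 14 to 19 from PN2 to PN14 and 3 to 4 from PN14 to PN28, and the ratio of Slc25a4 to Slc25a5 at PN14 was 25.8 to 47.0. Library size alone turned the balance of calls higher and lower from 13 and 2 to 7 and 7 from PN2 to PN14, and from 21 and 5 to 11 and 12 from E18.5 to adult. DESeq2's Wald test lost the calls of Slc25a2, Slc25a18 and Slc25a25 from PN2 to PN14 and that of Slc25a25 from E18.5 to adult.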
